A study of Mus musculus with 20 samples.

Results

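Immediate early and heat shock genes are the transcripts that rise first when cells are stimulated, injured or stressed, and their levels in a tumour library can carry a trace of how the tissue was handled. The 10 genes described here are Fos, Fosb, Jun, Junb, Egr1, Atf3, Ier2 and Nr4a1, of the immediate early response, and Hspa1a and Hsph1, of the heat shock response. They were taken by gene symbol from the 51826 genes of the count table, and all 10 passed the filter on low counts. The data are RNA sequencing of total RNA from 14 mouse lung metastases and the 6 primary sarcomas they were matched with. NEAT1, a long non-coding RNA, and its part in sarcoma metastasis through splicing are the subject named in the title, and the comparison the design gives is lung metastases against primary tumours. A primary tumour with its metastases is called a matched set: sets 1 and 2 have 4 metastases each, sets 3 and 6 have 2 each, and sets 4 and 5 have 1 each. A metastasis is named by its set and its own number, so 2-3 is number 3 of set 2; the metastasis of set 5 has no number and is written 5-x.

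The animals of both groups carried the genotype label of a mixed background. Sex, age, the alleles that drove the tumours, the site of the primary tumours, and the time from killing to freezing were not given in the sources used here. The labels do not tell whether samples are from separate animals; p-values therefore reflect only how these samples spread.

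Immediate early genes need no new protein synthesis for their induction: growth factors, calcium or damage act through MAP kinases on transcription factors already bound at their promoters. Many encode transcription factors themselves. The Fos and Jun families form the dimers of activator protein 1 (AP-1), while Egr1 is a zinc finger factor and Nr4a1 an orphan nuclear receptor. Heat shock genes are induced when heat shock factor 1 binds inverted repeats of GAA after proteins misfold. Tissue dissociation and delayed freezing are known to induce members of both classes.

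Promoter sequences were available from RefSeq (GRCm38.p6) for 8 of the 10 genes, with no entry used for Egr1 or Ier2. Each window runs from 250 bases before the transcription start to 50 bases after it. Those of Fos, Jun, Hspa1a and Hsph1 are shown because they are the genes whose levels set the pattern of the results and because their windows hold the motif of a stress-responsive factor. Capitals mark the motif matches. The Fos window is chr12:85473640-85473939 on the plus strand, the Jun window chr4:95052173-95052472 on the minus strand, the Hspa1a window chr17:34972107-34972406 on the minus strand, and the Hsph1 window chr5:149636287-149636586 on the minus strand.
Fos: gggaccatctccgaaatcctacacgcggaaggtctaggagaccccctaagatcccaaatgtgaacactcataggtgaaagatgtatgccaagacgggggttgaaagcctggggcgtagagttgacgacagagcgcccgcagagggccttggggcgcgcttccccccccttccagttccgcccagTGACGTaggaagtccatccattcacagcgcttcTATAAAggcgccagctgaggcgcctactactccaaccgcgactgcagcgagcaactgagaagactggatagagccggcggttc
Jun: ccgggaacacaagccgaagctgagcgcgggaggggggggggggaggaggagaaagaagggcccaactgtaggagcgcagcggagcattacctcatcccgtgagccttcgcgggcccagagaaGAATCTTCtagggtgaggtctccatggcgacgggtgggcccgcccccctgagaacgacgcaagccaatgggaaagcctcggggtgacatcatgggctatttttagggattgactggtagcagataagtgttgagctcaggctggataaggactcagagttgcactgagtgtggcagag
Hspa1a: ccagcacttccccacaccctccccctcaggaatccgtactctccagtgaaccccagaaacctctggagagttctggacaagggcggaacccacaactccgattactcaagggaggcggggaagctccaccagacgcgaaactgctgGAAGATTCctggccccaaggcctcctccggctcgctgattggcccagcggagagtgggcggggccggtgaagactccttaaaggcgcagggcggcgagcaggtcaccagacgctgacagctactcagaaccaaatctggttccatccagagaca
Hsph1: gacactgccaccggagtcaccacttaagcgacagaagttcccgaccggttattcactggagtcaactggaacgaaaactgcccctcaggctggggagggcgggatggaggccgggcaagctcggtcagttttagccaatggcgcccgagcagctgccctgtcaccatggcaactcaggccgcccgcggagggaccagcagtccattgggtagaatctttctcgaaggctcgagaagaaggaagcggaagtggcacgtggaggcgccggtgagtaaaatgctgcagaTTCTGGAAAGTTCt

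In Fos the capitals are TGACGT, the core of the cAMP response element, at bases -66 to -61, and TATAAA, the TATA box, at -33 to -28. In Jun they mark GAATCTTC at -128 to -121, and in Hspa1a GAAGATTC at -104 to -97. Both are matches to GAANNTTC, a pair of inverted GAA units of the heat shock element. In Hsph1 the capitals are TTCTGGAAAGTTC, at 37 to 49 bases after the start, which is read on the other strand as the heat shock element with 3 inverted GAA units, each 2 bases from the next. The GAANNTTC match GAAAGTTC at 42 to 49 lies inside it. Of the genes not printed, Junb has TATAAA at 1 to 6, Atf3 has TGACGT on the minus strand at -8 to -3, and Fosb and Nr4a1 had no match to any motif searched.

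Both strands were searched for the CArG box of serum response factor, TGANTCA (the AP-1 site), the full cAMP response element TGACGTCA and its core TGACGT, the heat shock element with 3 units and its pair GAANNTTC, and the TATA box TATAAA, where TGACGT is also part of TGACGTCA and GAANNTTC part of the element with 3 units. Over all 32851 promoter windows, 1.63% held a CArG box, 1.79% TGACGTCA, 7.51% TGACGT, 7.81% TGANTCA, 0.603% the heat shock element with 3 units, 7.86% GAANNTTC and 13.6% TATAAA. A match is a description of letters in these windows and not a measured site.

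Total counts ran from 20603620 to 36824370 per library, and the share of counts in mitochondrial genes from 1.18% to 12.9%. Several libraries stood apart in their cell type markers. Primary tumours 4 and 6 had an endothelium index (the mean over 12 endothelial markers of log2 CPM, the count scaled to the library total) of -2.61 and -1.32 and a macrophage index of -1.76 and -0.47, while the other primary tumours had 4.49 to 5.53 and 5.72 to 6.21. Their skeletal muscle indices of -0.15 and -1.999 were likewise far below the 7.93 to 8.92 of the other 4 primary tumours. The 10 sarcoma and mesenchyme markers had a summed level of 6748 to 32438 CPM in metastases and 15458 to 31096 CPM in primary tumours. Primary tumour 4 had the lowest sarcoma and mesenchyme index of all libraries, 7.15, with 1 marker at 0. The other primary tumours had 8.68 to 10.2. Metastasis 1-1 had the highest lung epithelium index, at 8.14, and the highest endothelium index, at 7.15.

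None of the 10 genes was higher in lung metastases and 2 were lower, Jun and Hsph1, by edgeR's quasi-likelihood test with the matched set as a block and a Benjamini-Hochberg adjusted p under 0.05 over 18452 genes. Over all genes tested 7.34% were higher, 6.44% lower and 13.8% changed in either direction by the same rule. At an unadjusted p under 0.05 the counts were again 0 higher and 2 lower of the 10 genes, against 28.8% of all genes in either direction. DESeq2, which gave no p for Atf3, and limma voom likewise called 0 higher and 2 lower, where DESeq2 called 22.6% and limma voom 15.8% of all genes in either direction. With the skeletal muscle index (the mean log2 CPM of 20 muscle markers) as a covariate edgeR called 2 higher, Fos and Junb, where 15.4% of all genes were higher. The median log2 fold change of the 10 genes was 0.25 and that of all genes -0.00. None of the 10 had metastases and primary tumours that did not overlap, against 1.39% of all genes.

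**Figure D1:**
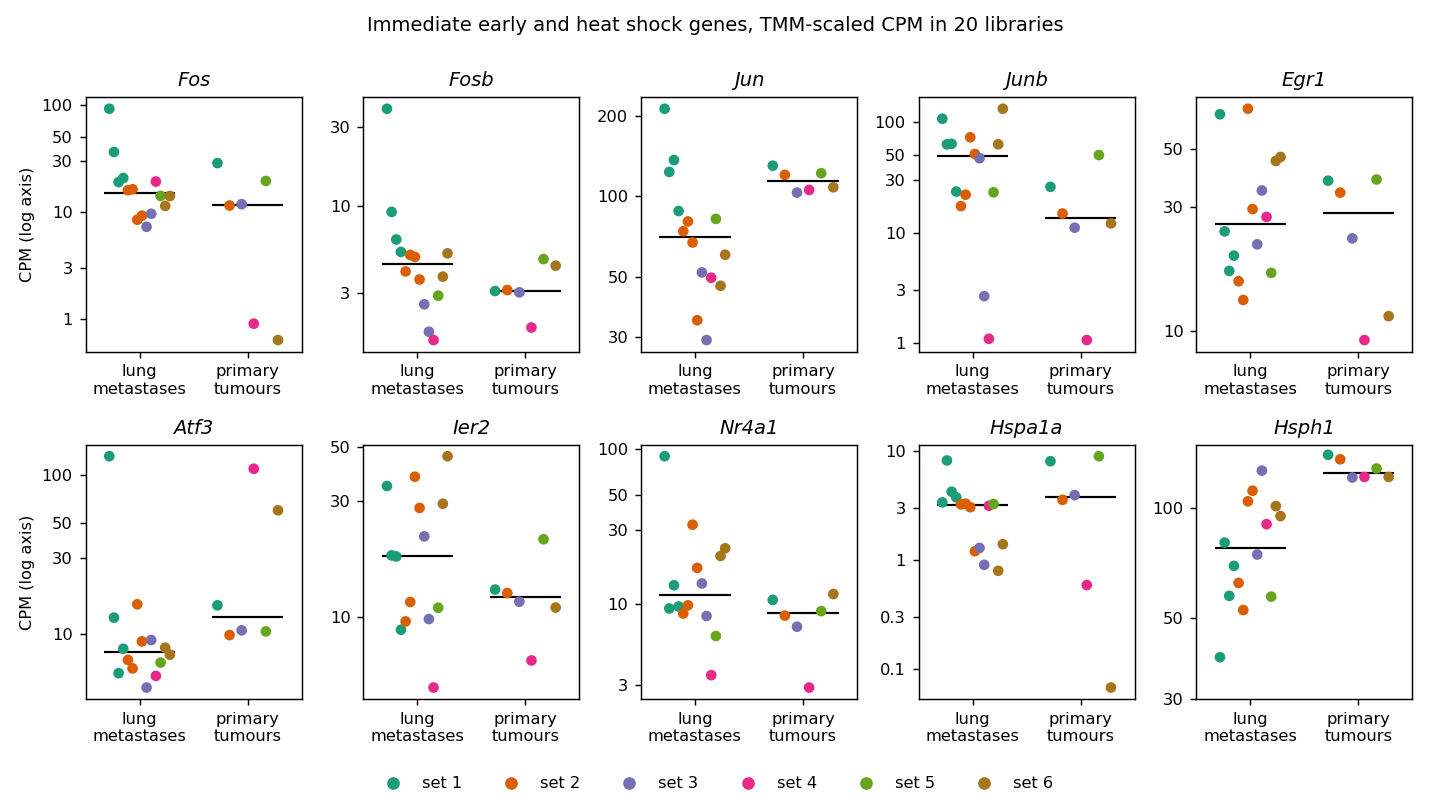
Level of each gene in 14 lung metastases (left) and 6 primary tumours (right), in CPM scaled by TMM factors on a log axis; points are libraries, colours are matched sets, and bars are group medians. Jun and Hsph1 lie in a narrow band in the primary tumours (103 to 130 CPM and 121 to 140 CPM), above most metastases, while Fos, Atf3 and Hspa1a have primary tumours 4 and 6 apart from the other 4.

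Jun, the AP-1 partner of the Fos proteins, had 29.2 to 212 CPM in the metastases, with a median of 70.8 CPM, against 103 to 130 CPM in the primary tumours, with a median of 114 CPM. The primary tumours differed little among themselves, whereas the metastases spread widely, with 11 of 14 below every primary tumour and 2, metastases 1-1 and 1-3, above every one. The log2 fold change was -0.81 ± 0.231 (SE), with an edgeR adjusted p of 0.0288. Jun was lower in the metastases of 5 of 6 sets: the log2 difference was -0.98, -1.40, -1.09, -0.56 and -1.03 in sets 2 to 6, and 0.03 in set 1. In set 1 the 4 metastases had 212, 123, 137 and 88.3 CPM and the primary tumour 130 CPM. Jun (ENSMUSG00000052684.4) is a protein-coding gene at chr4:95049034-95052222 of mm10, minus strand. It shares 689 bases with the antisense gene Junos, which had 1.63 to 12.8 CPM, and without a stated strand setting reads of the pair cannot be told apart.

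Hsph1, which encodes the HSP105 co-chaperone of the HSP70 system, was lower in the metastases of all 6 sets. It had 39.0 to 126 CPM in the metastases, with a median of 77.5 CPM, against 121 to 140 CPM in the primary tumours, with a median of 125 CPM. Of the 14 metastases 13 lay below every primary tumour, and metastasis 3-2 overlapped them. The log2 fold change was -0.70 ± 0.202 (SE), with an edgeR adjusted p of 0.0298. The log2 differences of Hsph1 in sets 1 to 6 were -1.23, -0.79, -0.32, -0.43, -1.16 and -0.31. It was the only 1 of the 10 genes lower in the metastases of all 6 sets, where 6.43% of all genes were, and 0 of the 10 were higher in all 6, where 9.01% were. Hsph1 (ENSMUSG00000029657.15) is a protein-coding gene at chr5:149614287-149636376, minus strand.

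Both calls were near the threshold. The call of Jun ended when primary tumour 2 (adjusted p = 0.0845), primary tumour 3 (0.0872), metastasis 4-1 (0.0575), primary tumour 6 (0.0773) or metastasis 6-1 (0.0549) was left out of the edgeR fit. That of Hsph1 ended without primary tumour 1 (0.130), metastasis 1-3 (0.0511), primary tumour 2 (0.0762), metastasis 3-1 (0.0504), primary tumour 5 (0.0627) or metastasis 5-x (0.0639). Neither passed with the metastases of each set summed (Jun 0.110, Hsph1 0.148), with metastasis 1 of each set alone (0.212 and 0.0962) or with sets 4 and 6 left out (0.140 and 0.0547). Few genes passed in the first 2 of these fits, 2.04% of all genes with summed metastases and 2.41% with metastasis 1 alone, and 9.84% passed without sets 4 and 6. With a whole set left out each call was kept in 2 of 6 fits. In those fits 5.45% (without set 1) to 16.6% (without set 3) of all genes passed. With 1 library left out 8.41% to 19.6% of all genes passed, against 13.8% with all 20 libraries. Without the matched set as a block Jun had -0.50 (edgeR adjusted p = 0.309) and did not pass, where 13.5% of all genes did. In all 36 alternatives both log2 fold changes stayed negative, from -1.46 to -0.50 for Jun and from -0.92 to -0.00 for Hsph1.

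Lung epithelium markers differed between the groups in the direction opposite to Hsph1. Of 20 such markers 18 were higher in the metastases and 0 lower, with a summed level of 741 to 16466 CPM in metastases and 11.6 to 581 CPM in primary tumours. At most 2 of the 20 markers were at 0 in a metastasis and at most 6 in a primary tumour. Among the metastases the lowest Hsph1 level, 39.0 CPM, was in metastasis 1-1, which had the highest lung epithelium index, while metastases 2-3 and 2-4 had indices of 1.28 and 0.63 and Hsph1 levels of 104 and 111 CPM. Metastases 2-1 and 2-2 of the same set had indices of 6.40 and 6.58 and Hsph1 levels of 62.3 and 52.6 CPM. Other libraries did not keep this order. In set 1, metastases 1-2, 1-3 and 1-4 had indices of 5.57, 4.51 and 4.86 and Hsph1 levels of 80.4, 57.5 and 69.4 CPM, and metastasis 6-1, with an index of 4.82, had 101 CPM. With the lung epithelium index added to the fit, Hsph1 had a log2 fold change of -0.00 (edgeR adjusted p = 0.999), while that of Jun was -1.46 and passed, in a fit where 6.75% of all genes passed. The index was -2.36 to 1.635 in the primary tumours and at least 4.02 in every metastasis except 2-3 and 2-4. It thus nearly followed tumour type, and this fit can hardly tell the index and tumour type apart. With the skeletal muscle index in the fit Hsph1 had -0.56 and did not pass (edgeR adjusted p = 0.0968), while Jun did. The summed level of the 20 muscle markers was 252 to 12339 CPM in metastases and 20.6 to 31523 CPM in primary tumours, with 12 markers lower and 0 higher. In bulk tissue, fewer cells of a type and less RNA per cell cannot be told apart.

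**Figure D2:**
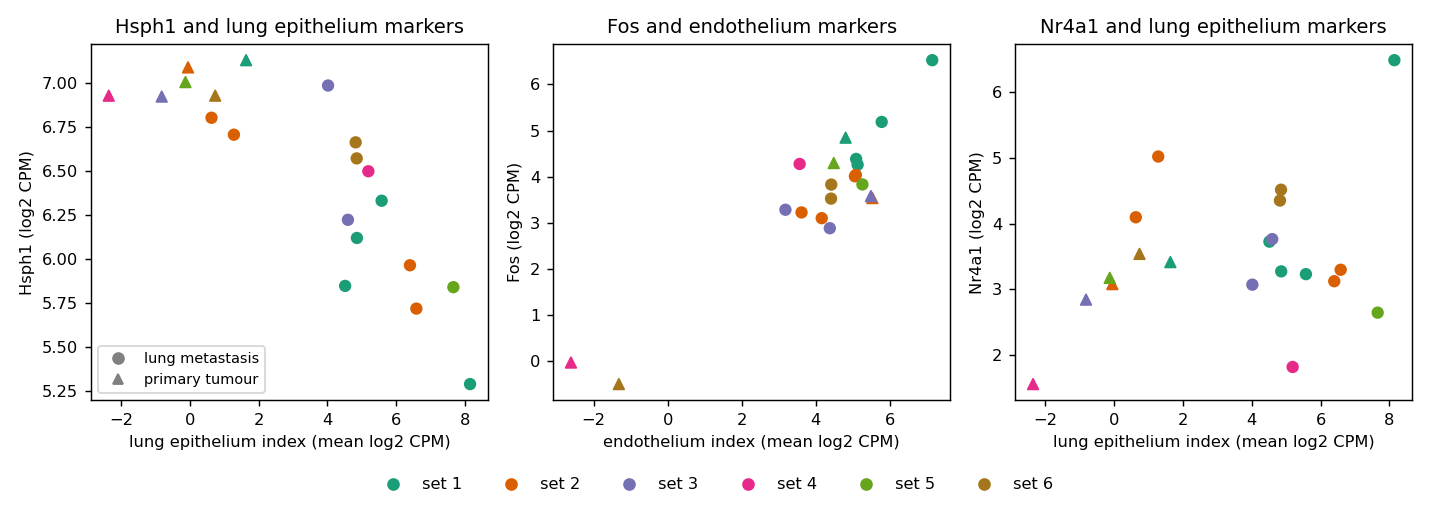
Level of Hsph1, Fos and Nr4a1 (log2 CPM) against the lung epithelium or endothelium index (mean log2 CPM of the markers) in 20 libraries; circles are lung metastases, triangles primary tumours, colours matched sets. The lowest Hsph1 level lies at the highest lung epithelium index, 8.14, and the 2 lowest Fos levels lie at the endothelium indices of -2.61 and -1.32 of primary tumours 4 and 6.

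Fos, the founding member of the AP-1 family, did not pass the test, and its spread lay in the primary tumours. It had 7.29 to 92.2 CPM in the metastases, with a median of 15.1 CPM. In primary tumours 1 to 6 it had 28.7, 11.5, 11.9, 0.909, 19.5 and 0.639 CPM. Primary tumours 4 and 6 were thus far below all 14 metastases, while the other 4 primary tumours fell within the range of the metastases. These 2 low levels rested on 17 and 19 counts. The log2 fold change was 0.83 ± 0.595 (SE), with an edgeR adjusted p of 0.388, and the log2 difference was 4.31 in set 4 and 4.18 in set 6, against -0.50 to 0.24 in the other 4 sets. With sets 4 and 6 left out the log2 fold change of Fos was -0.03. Fos (ENSMUSG00000021250.13) is a protein-coding gene at chr12:85473890-85477273, plus strand.

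The summed level of the 12 endothelial markers was 170 to 2948 CPM in metastases and 2.73 to 749 CPM in primary tumours, with up to 5 markers at 0 in a primary tumour and none in a metastasis. Of the 12, 0 passed in either direction by edgeR or limma voom. DESeq2 called 2 of them higher, and 1 was higher by edgeR before adjustment (p under 0.05). The lowest of these sums were those of primary tumours 4 and 6, where Fos was lowest too. The part of these markers in the levels of Fos was not tested.

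Fosb, which encodes a close relative of Fos, had the lowest medians of the 10 genes per kilobase of exon. It had 1.57 to 38.7 CPM in the metastases, with a median of 4.52 CPM, against 1.87 to 4.82 CPM in the primary tumours, with a median of 3.12 CPM. Metastasis 1-1 had 38.7 CPM, while the next highest library, metastasis 1-2, had 9.27 CPM. Its log2 fold change of 0.20 ± 0.467 (SE) did not pass (edgeR adjusted p = 0.816). Without set 1 it was -0.17 and without primary tumour 1 -0.15. Over sets 1 to 6 the log2 differences were 1.74, 0.48, -0.50, -0.24, -0.72 and 0.01.

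Junb, a Jun relative that dimerises with the Fos proteins, was the gene with the largest positive log2 fold change of the 10, 1.11 ± 0.62 (SE), and did not pass (edgeR adjusted p = 0.258). It had 1.10 to 132 CPM in the metastases, with a median of 49.1 CPM, against 1.07 to 50.2 CPM in the primary tumours, with a median of 13.5 CPM. The lowest levels were those of set 4 in both groups, 1.10 CPM in metastasis 4-1 and 1.07 CPM in primary tumour 4, followed by metastasis 3-2 with 2.67 CPM. The other 12 metastases had at least 17.4 CPM. Junb was higher in 5 of 6 sets and lower in set 5, with log2 differences of 1.11, 1.21, 0.03, 0.04, -1.12 and 2.90 over sets 1 to 6. Junb (ENSMUSG00000052837.6) overlaps the peroxiredoxin gene Prdx2 by 351 bases on the opposite strand. Prdx2 had 39.8 to 475 CPM, so reads of this overlap could count for either gene.

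Egr1, a zinc finger factor induced through serum response elements, had 13.1 to 71.7 CPM in the metastases, with a median of 25.8 CPM, against 9.19 to 38.2 CPM in the primary tumours, with a median of 28.4 CPM. Primary tumours 4 and 6 were the lowest of all libraries, with 9.19 and 11.4 CPM. Metastases over primary tumours gave a log2 fold change of 0.30 ± 0.446 (SE), with an edgeR adjusted p of 0.703, and -0.24 with sets 4 and 6 left out. In set 2 metastasis 2-3 had 71.7 CPM, against 13.1 to 29.4 CPM in the other 3 metastases of that set.

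Atf3, a factor of the ATF/CREB family induced by both growth signals and the integrated stress response, went the other way in primary tumours 4 and 6. It had 4.61 to 131 CPM in the metastases, with a median of 7.75 CPM. In primary tumours 1 to 6 it had 15.1, 9.85, 10.6, 109, 10.4 and 59.9 CPM. Metastasis 1-1 was highest of all 20 libraries, primary tumours 4 and 6 came next, and 11 of 14 metastases lay below every primary tumour. The log2 fold change was -1.17 ± 0.795 (SE), with an edgeR adjusted p of 0.359. Without metastasis 1-1 the adjusted p was 0.0540, and with sets 4 and 6 left out the log2 fold change was 0.00236, so its value rested on few libraries. Primary tumours 4 and 6 thus combined the highest Atf3 among primary tumours with the lowest Fos, Egr1 and Hspa1a.

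Ier2, a short immediate early gene whose product acts in the nucleus, had 5.13 to 45.7 CPM in the metastases, with a median of 17.8 CPM, against 6.63 to 20.8 CPM in the primary tumours, with a median of 12.04 CPM. The 6 highest libraries were metastases, led by metastasis 6-2, and the lowest was metastasis 4-1. Its log2 fold change of 0.47 ± 0.405 (SE) did not pass (edgeR adjusted p = 0.484). The log2 difference was 0.44, 0.56, 0.33, -0.37, -0.93 and 1.73 over sets 1 to 6.

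Nr4a1, which encodes the nuclear receptor NUR77, had 3.47 to 89.5 CPM in the metastases, with a median of 11.5 CPM, against 2.89 to 11.6 CPM in the primary tumours, with a median of 8.68 CPM. Metastasis 1-1 alone had 89.5 CPM, and metastases 2-3, 6-2 and 6-1 followed with 32.4, 22.8 and 20.3 CPM. Of the 14 metastases 7 lay above every primary tumour and none below. The log2 fold change was 0.72 ± 0.511 (SE), higher in 5 of 6 sets, and did not pass (edgeR adjusted p = 0.379).

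Hspa1a, one of the paired stress-inducible HSP70 genes, was low in all libraries. It had 0.795 to 8.20 CPM in the metastases, with a median of 3.19 CPM. In primary tumours 1 to 6 it had 8.07, 3.56, 3.94, 0.588, 8.97 and 0.0673 CPM, where the levels of primary tumours 4 and 6 rested on 11 and 2 counts. The groups overlapped and the primary tumours held both the highest and the lowest levels. With a log2 fold change of -0.24 ± 0.561 (SE) Hspa1a did not pass, at an edgeR adjusted p of 0.818. Sets 1, 2, 3 and 5 had log2 differences of -0.81, -0.50, -1.81 and -1.44, and sets 4 and 6 had 2.30 and 3.09. Its near-identical copy Hspa1b, not one of the 10 genes, had 3.97 to 35.4 CPM in metastases and 1.24 to 17.1 CPM in primary tumours (log2 fold change 0.46 ± 0.428, edgeR adjusted p = 0.514). Of the 50-base words of Hspa1a, 58.8% also occur in Hspa1b, so reads of the pair may be split or dropped and both levels are uncertain. Hspa1a (ENSMUSG00000091971.3) is a protein-coding gene at chr17:34969190-34972156, minus strand, and overlaps Gm20481 by 2225 bases on the opposite strand, a gene with at most 1 count in a library.

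**Figure D3:**
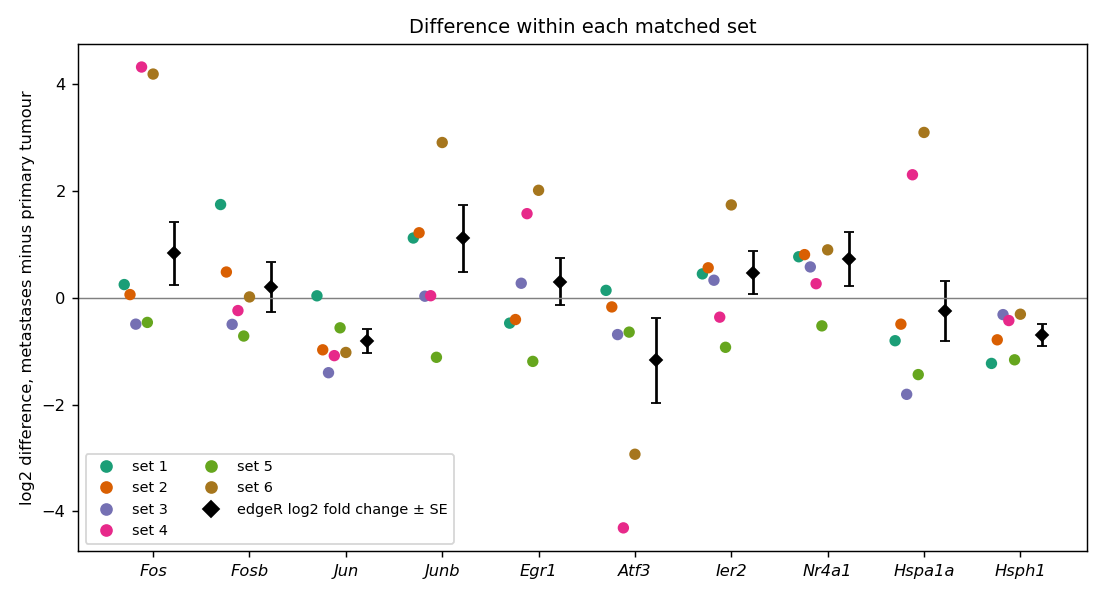
Difference in log2 CPM within each matched set, metastases (their mean) minus primary tumour, for each gene; coloured points are sets, and black diamonds with bars are edgeR log2 fold changes ± SE. Hsph1 is below 0 in all 6 sets and Jun in 5, while Fos, Hspa1a and Atf3 have sets 4 and 6 far from the other 4.

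Whether the difference between metastases and primary tumour varied over sets was tested as an interaction. In edgeR it passed for 0 of the 10 genes, where 4.1% of all genes passed, with 2 of the 10 at an unadjusted p under 0.05 (22.2% of all genes). These were Hspa1a (adjusted p = 0.0776) and Fos (adjusted p = 0.0986). A DESeq2 likelihood ratio test called both, Hspa1a at an adjusted p of 0.000665 and Fos at 0.000853, and 22.2% of all genes. Each set has a single primary tumour, which gives no spread of its own in either test.

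The metastases of different primary tumours were compared among the 12 metastases of sets 1, 2, 3 and 6. By edgeR 0 of the 10 genes passed, where 0.321% of all genes passed, and 4 were under 0.05 unadjusted (29.5% of all genes). These 4 were Jun (adjusted p = 0.0719), Fos (0.0800), Hspa1a (0.0807) and Fosb (0.0950). DESeq2's likelihood ratio test called the same 4 (Jun 0.00175, Fos 0.00196, Hspa1a 0.00126 and Fosb 0.00473) and 24.5% of all genes. All 4 were highest in set 1. Fos had 92.2, 36.4, 19.1 and 20.8 CPM in the metastases of set 1, 16.0, 16.3, 8.49 and 9.26 CPM in set 2, 7.29 and 9.64 CPM in set 3 and 11.4 and 14.1 CPM in set 6, so that each metastasis of set 1 was above each of the other 3 sets. The same held for Fosb, Jun and Hspa1a. Without set 2, edgeR called Jun (adjusted p = 0.0363) and Hspa1a (0.0335), in a fit where 12.2% of all genes passed.

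The 10 genes did not vary as 1 group. Over the 20 libraries Junb and Ier2 had a Pearson r of 0.87 in log2 CPM, Ier2 and Nr4a1 0.85 and Junb and Nr4a1 0.78. Without metastasis 1-1, the 13 other metastases gave 0.85, 0.93 and 0.80 for these pairs. These 3 genes were high together in metastases 1-1, 2-3, 6-1 and 6-2 and low in metastasis 4-1 and primary tumour 4. Fos went instead with Hspa1a, at 0.81 over 20 libraries and 0.78 over the 13 metastases, although the value over 20 libraries includes the low primary tumours 4 and 6. Between Fos and Nr4a1 it was 0.39 over 20 libraries and -0.47 over the 13 metastases. Jun had 0.38 with Hspa1a and -0.25 with Hsph1 over 20 libraries, and 0.86 and -0.75 over the 13 metastases. These values are descriptions, and libraries of 1 set may share an animal.

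**Figure D4:**
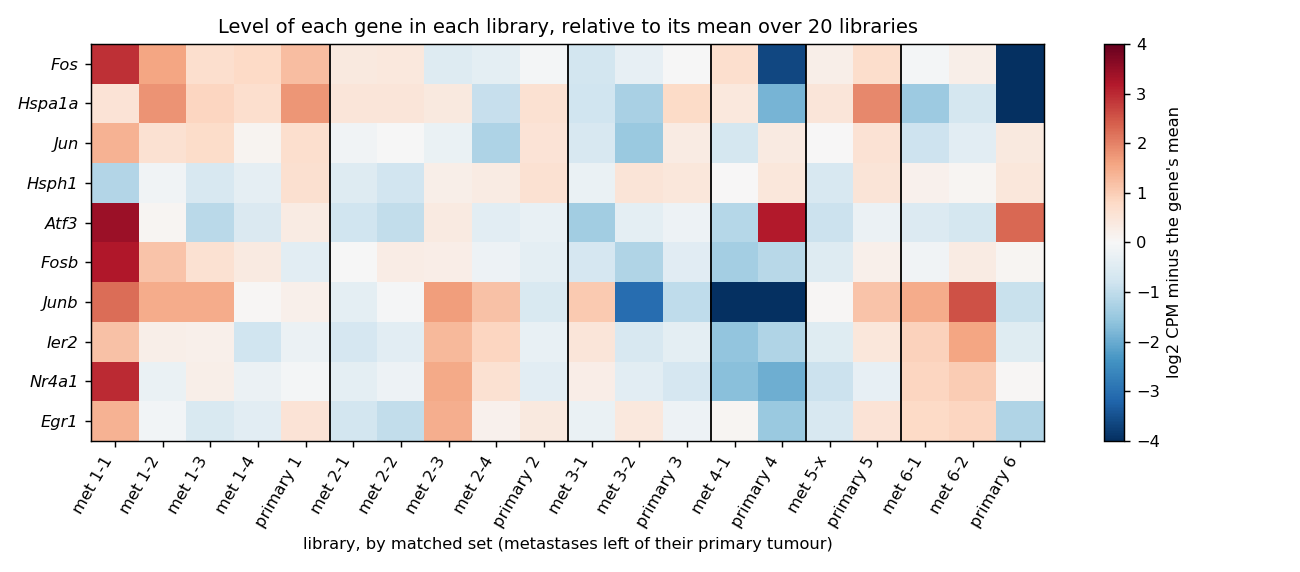
Level of each gene in each library, as log2 CPM minus the mean of that gene over 20 libraries, with colours capped at 4 in either direction; columns are libraries by matched set, with metastases left of their primary tumour. Metastasis 1-1 is high for the 8 immediate early genes, nearer the mean for Hspa1a and low for Hsph1, and Junb, Ier2 and Nr4a1 share their high and low libraries.

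Metastasis 1-1 had the highest level of all 20 libraries for Fos, Fosb, Jun, Atf3 and Nr4a1, and the lowest for Hsph1. The mean log2 CPM of the 8 immediate early genes was 6.37 in this library, against 2.79 to 4.76 in the other 13 metastases and 2.76 to 4.42 in the primary tumours. Its mitochondrial share was 2.86% and its total of 31183677 counts was within the range of the others. In its cell type markers metastasis 1-1 stood apart. It had the highest indices of lung epithelium (8.14) and endothelium (7.15), and the highest sum of lung endothelium and stroma markers, 1237 CPM. The lowest means were those of metastasis 4-1, at 2.79, and primary tumour 4, at 2.76. Both stood apart in other measures too. Their mitochondrial shares were 8.22% and 6.21%, against a median of 2.60% over the 20 libraries, and their levels of Rmrp, the RNA of the ribonuclease MRP complex, were 31.2 and 24.2 CPM, against a median of 1951 CPM. Primary tumour 4 also had the fewest genes detected, 20352, and the lowest TMM factor, 0.712. High mitochondrial shares were found in other libraries as well. Metastasis 3-1 had 12.9%, with an Rmrp level of 10135 CPM and an immediate early mean of 3.80. Metastasis 3-2 had 7.93%, with an Rmrp level of 117 CPM and a mean of 3.15. The part of these markers and measures in the high and low means was not tested.

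Between genes, levels are compared per kilobase of exon. Jun was highest in the metastases, with a median of 22.2 CPM per kilobase, followed by Junb with 21.4, Ier2 with 11.7 and Hsph1 with 10.7 CPM per kilobase. Fos had 6.41, Egr1 5.75, Atf3 3.60, Nr4a1 3.27, Hspa1a 1.08 and Fosb 0.724 CPM per kilobase. In the primary tumours Jun again came first, with 35.8 CPM per kilobase, then Hsph1 with 17.2, Ier2 with 7.91, Egr1 with 6.32, Atf3 with 5.96 and Junb with 5.86 CPM per kilobase. Neighbours in these orders had ranges that overlapped over the metastases. In the primary tumours the range of Jun, 32.4 to 40.8, stood clear of that of Hsph1, 16.7 to 19.2, which in turn was above that of Ier2, 4.35 to 13.7 CPM per kilobase.

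The genes with the most alike pattern to the mean of the 8 immediate early genes over 20 libraries, of 10874 genes compared, were Pim1, a serine/threonine kinase gene (Pearson r 0.89, Spearman 0.81), Csrnp1, which is on the list of other immediate early genes (0.87 and 0.86), Cdk18 (0.86 and 0.87), Krt80 (0.86 and 0.67), Prx (0.85 and 0.58) and the clock repressor gene Nr1d1 (0.85 and 0.92). Without metastasis 1-1 and primary tumour 4, the libraries farthest from the median, Krt80 had 0.71 and Prx 0.70 and the other 4 had 0.83 to 0.87. The mean of Hspa1a and Hsph1 followed Hspa1a, with which it had an r of 0.93 over 20 libraries, against 0.14 with Hsph1; the pair itself had -0.23, and -0.57 over the 14 metastases. The genes most like this mean, a pattern of Hspa1a more than of the heat shock class, were Slc37a2 (0.90 and 0.85), Nptx1 (0.88 and 0.84), the receptor gene Tlr1 (0.88 and 0.83), the splicing regulator gene Rbfox1 (0.88 and 0.87), Epsti1 (0.87 and 0.78) and the IgG receptor gene Fcgr1 (0.86 and 0.86). Over the 14 metastases these 6 values were lower, between 0.59 and 0.66.

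The other immediate early genes, 38 tested of 40 listed, gave 3 higher and 2 lower, with a median log2 fold change of 0.14. Fosl2, the gene of an AP-1 member of the Fos family, was lower in 6 of 6 sets (-1.19 ± 0.266 SE, edgeR adjusted p = 0.00936), at 83.1 ± 41.5 CPM in metastases and 179 ± 75.8 CPM in primary tumours (SD, n = 14 and 6). Tob1, of an antiproliferative protein, was higher (0.92 ± 0.229, edgeR adjusted p = 0.0150), and the kinase gene Plk2 was lower (-1.57 ± 0.406, 0.0188). With sets 4 and 6 left out edgeR called 0 in either direction, where 9.84% of all genes passed, and before adjustment 8 were higher and 5 lower (p under 0.05). The unadjusted share of all genes in that fit is not given here, so these counts have no background beside them. In the fit of all 20 libraries it was 28.8% in either direction.

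Of 12 MAP kinase feedback and output genes, among them phosphatases and Sprouty genes that damp the signal, 1 was higher and 1 lower, with a median of 0.32. These were Spred2 (0.55 ± 0.147 SE, edgeR adjusted p = 0.0215) and Etv5 (-0.53 ± 0.143, 0.0233), and Etv4 had 0.70 ± 0.294 (0.127). Both calls depended on the fit. In edgeR 0 of the 12 passed with sets 4 and 6 left out (9.84% of all genes) or with summed metastases (2.04%). Each library left out in turn gave 0 to 1 higher and 0 to 2 lower (8.41% to 19.6%). Without primary tumour 3 or primary tumour 6 both counts were 0. The lung epithelium index, which nearly followed tumour type, gave 4 higher and 0 lower (6.75%). DESeq2 and limma voom each gave 1 higher and 1 lower. Of 18 signal and transcription factor genes upstream, 0 were higher and 2 lower, with a median of -0.22. Elk3, whose product binds serum response elements with serum response factor, was lower in 6 of 6 sets (-0.67 ± 0.125 SE, edgeR adjusted p = 0.00356), as was Creb1, the cAMP response element binding factor, in 5 (-0.74 ± 0.226, 0.0401), while the kinase gene Mapkapk2 had -0.59 ± 0.200 (0.0613). Srf is on both this list and that of other immediate early genes. Leaving out 1 library gave 1 to 5 lower, with 5 lower and 1 higher without metastasis 3-2, where 19.6% of all genes passed. DESeq2 likewise called 1 higher and 5 lower. The interaction over sets passed for 1 of the 18.

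The other cytosolic heat shock genes, 28 tested, gave 0 higher and 4 lower, with a median of -0.10. Hspb6, a small heat shock protein gene, was lower in 6 of 6 sets, at 5.71 ± 2.07 CPM in metastases and 16.0 ± 4.44 CPM in primary tumours (SD, n = 14 and 6; log2 fold change -1.68 ± 0.267 SE, edgeR adjusted p = 0.00180). Chordc1, an HSP90 co-chaperone gene, was lower too (-1.13 ± 0.211, edgeR adjusted p = 0.00360), as was Hspa4, of an HSP110 family protein like HSP105 (-0.52 ± 0.156, 0.0365), both in 6 of 6 sets. With sets 4 and 6 left out the list gave 1 higher and 4 lower, and with summed metastases 0 higher and 1 lower. DESeq2 called 2 higher and 5 lower, where 22.6% of all genes passed. By edgeR before adjustment 3 of the 28 were higher and 6 lower (p under 0.05, against 28.8% of all genes in either direction). Of 8 mitochondrial chaperone genes 0 were higher and 2 lower, with a median of -0.47: Dnaja3 (-1.04 ± 0.224 SE, edgeR adjusted p = 0.00736) and Trap1 (-0.63 ± 0.175, 0.0262). Hspd1, of HSP60, had -0.54 ± 0.231 (0.132). With sets 4 and 6 left out edgeR called 0 of these 8, with a median of -0.12, where 9.84% of all genes passed. Summed metastases likewise gave 0 (2.04% of all genes), as did the lung epithelium index in the fit (6.75%). The skeletal muscle index gave 5 lower and 0 higher (27.1%).

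Genes of the endoplasmic reticulum and integrated stress responses were lower in larger numbers. Of 16 chaperone genes of the endoplasmic reticulum 0 were higher and 7 lower, with a median of -0.51. The disulfide isomerase gene Pdia6 had 204 ± 40.5 CPM in metastases and 379 ± 85.8 CPM in primary tumours (SD, n = 14 and 6; log2 fold change -0.97 ± 0.144 SE, edgeR adjusted p = 0.00113). Manf (-0.69 ± 0.141, edgeR adjusted p = 0.00578) and Hsp90b1, of the chaperone GRP94 (-0.96 ± 0.221, 0.0106), were lower as well. Of 18 integrated stress response genes, which are induced through ATF4, 0 were higher and 7 lower, with a median of -0.71. The proline synthesis gene Pycr1 (-1.84 ± 0.203 SE, edgeR adjusted p = 0.000221), the factor gene Atf5 (-2.33 ± 0.325, 0.000942) and the pseudokinase gene Trib3 (-2.10 ± 0.397, 0.00398) were lower in 6 of 6 sets. Ddit4 of this list, named after its values were seen, went the other way, with 1.17 ± 0.383 (SE), and did not pass (edgeR adjusted p = 0.0536). Trib3 was highest in primary tumour 6, at 130 CPM, followed by primary tumour 4, at 31.7 CPM, which were also the primary tumours of highest Atf3. The difference of Trib3 varied over sets (interaction in edgeR, adjusted p = 0.0266), as did that of Ddit3, named after its values were seen (0.0382), and these were the 2 of the 18 integrated stress response genes that passed, against 0 of the 16 chaperone genes.

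These counts changed with the fit. Once the lung epithelium index, which nearly followed tumour type, was in the fit, each list had 2 lower and 0 higher. The medians were then -0.77 for the chaperone genes and -0.46 for the integrated stress response genes. With sets 4 and 6 left out each gave 3 lower, and 0 and 1 higher, and with summed metastases 0 and 2 were lower. Leaving out primary tumour 6 alone gave 4 and 3 lower, and primary tumour 1 alone 4 and 5, while over all libraries left out in turn the ranges were 4 to 7 and 3 to 9. DESeq2 called 7 and 11 lower, and 0 and 1 higher, and limma voom called 7 and 7 lower, and 0 and 1 higher. Over all genes, 9.38% passed in either direction without primary tumour 6 and 9.78% without primary tumour 1. With each library left out in turn this share was 8.41% to 19.6%. The shares of the other fits are those given above. In the fit of all 20 libraries with no covariate 7.34% of all genes were higher and 6.44% lower. No test of these lists as sets was made.

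Cell type markers moved with the same comparison. Beside the 18 of 20 lung epithelium markers, 9 of 9 erythroid, 6 of 10 neutrophil and 6 of 10 lung endothelium and stroma markers tested were higher in the metastases and 0 lower, while 12 of 20 skeletal muscle and 4 of 12 T and natural killer cell markers were lower and 0 higher. Of the sarcoma and mesenchyme markers 2 of 10 were lower, with a median log2 fold change of -0.61, and 0 higher. For macrophages 2 of 12 were higher and 0 lower, and for adipocytes 1 of 7 tested was lower and 0 higher. The summed erythroid level was 28.1 to 9511 CPM in metastases and 8.37 to 77.8 CPM in primary tumours, with up to 1 marker at 0 in a metastasis and up to 5 in a primary tumour. The summed neutrophil level was 48.2 to 714 CPM in metastases and 0.534 to 369 CPM in primary tumours. The sum was 67.6 to 1237 CPM in metastases and 17.2 to 154 CPM in primary tumours for lung endothelium and stroma, and 2.34 to 14.2 CPM in metastases and 0.962 to 174 CPM in primary tumours for T and natural killer cells. For the lists other than lung epithelium and skeletal muscle the part of the markers in the counts was not tested.

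**Figure D5:**
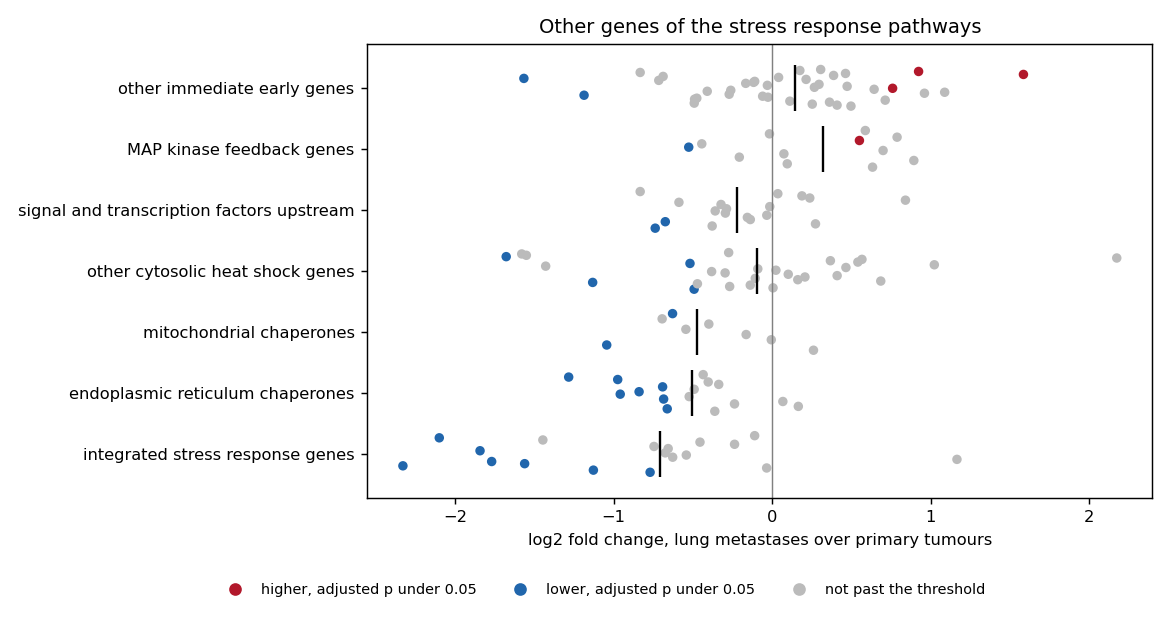
Log2 fold change, lung metastases over primary tumours, of the tested genes of 7 lists; red and blue points passed at an adjusted p under 0.05, grey points did not, and black bars are list medians. The medians run from 0.32 for the MAP kinase feedback genes to -0.71 for the integrated stress response genes.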

How the data were processed

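Total RNA of 14 lung metastases and 6 primary tumours was sequenced. Per the labels' protocols, a Direct-zol kit was used for extraction and a stranded Ribo-Zero Gold kit for the libraries. The submitters' processing notes name Trimmomatic 0.36, STAR 5.5.4b (a doubtful version string), HTSeq and the mm10 build. The authors deposited a table of whole-number counts per gene, with no normalization. Which annotation release and strand setting were used for counting is not given in the sources used here. Identifiers were matched to GENCODE symbols: 51633 of 51826 had one, and the 193 without held 0.017% of the counts. Of 296 listed symbols 295 were found. Nr4a1 was matched in another version of its identifier.

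From these counts, CPM and log2 CPM (prior count 2) with TMM factors were computed. edgeR 4.0.16 in R 4.3.3 (filterByExpr, minimum count 10; robust quasi-likelihood fit; matched set as a block) tested 18452 genes with 13 residual degrees of freedom. SE is the log2 fold change over the square root of F. Metastases of different sets were compared over 19919 genes with 8 residual degrees of freedom. DESeq2 1.42.0, limma voom 3.58.1 and leaving out each library or set were among the alternatives. DESeq2 gave no p for Atf3. The scripts were tested on simulated data.

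The pairing comes from the titles and the design text. A primary tumour's deviation from its group mean correlated on average at 0.0975 with that of its metastases over 1000 genes (-0.235 to 0.345 over sets). Named genes are the 10, the 3 of smallest p in each pathway list, and the 6 of most alike pattern for each class among genes averaging 2 log2 CPM or more. The 10 genes and all lists were chosen with earlier results of these data known.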

Additional observations from a re-analysis of the deposited data

Results flagged for a closer look

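Of 30 groups of 4 to 6 samples examined (primary tumours, metastases of set 1 and metastases of set 2, for each of the 10 genes), 3 had a library far from the others by the ratio of its gap to the range of the group, where chance gives about 1 in 20.

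Nr4a1 in metastasis 1-1 was high among the 4 metastases of set 1, with a gap of 0.848 of the range (log2 CPM of 6.48, against 3.73 in the next). Nr4a1 in primary tumour 4 was low among the 6 primary tumours, with a gap of 0.649 of the range (1.56, against 2.85 in the next). Hspa1a in metastasis 2-4 was low among the 4 metastases of set 2, with a gap of 0.926 of the range (0.34, against 1.64 in the next), at 40 counts.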

How the results depend on the processing

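The 2 lower calls (Jun and Hsph1) became 1 with no replicate block, that is without the pairing by matched set (Jun -0.50, adjusted p = 0.309), 0 with summed metastases and 0 with only metastasis 1 kept per set, 1 with either the lung epithelium index or the muscle index in the fit (1 each), and 0 without sets 4 and 6. Leaving out a library or a set gave 0 to 2 lower calls, in fits where 5.45% to 19.6% of all genes passed. With the skeletal muscle index 2 were higher, Fos (2.31, edgeR adjusted p = 0.0178) and Junb (1.87, 0.0314), where 15.4% of all genes were. Between sets DESeq2 called 4 where edgeR called 0, and leaving out a set gave 0 to 2. The interaction called 1 with no filter on low counts (Fos, adjusted p = 0.0465) and 2 by DESeq2. Of 359 log2 fold changes under alternatives, 318 kept their direction and side of the threshold, 28 lost a call, 2 gained one and 11 turned in sign. Those that turned were Hspa1a with summed metastases (0.0541), with the muscle index (1.203), without set 3 (0.17) and without primary tumour 3 (0.17), Fos and Fosb with the lung epithelium index (-0.45 and -0.50), Fosb without set 1 (-0.17) and without primary tumour 1 (-0.15), and, without sets 4 and 6, Fos (-0.0315), Egr1 (-0.24) and Atf3 (0.00236). Leaving out a library or set gave Fosb -0.17 to 0.40 and Hspa1a -0.65 to 0.17. The cause was not tested. Low counts limit Hspa1a and Fos in primary tumours 4 and 6.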

Other observations

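Hspa8, which encodes the constitutive HSP70 of the cytosol and is on the list of other cytosolic heat shock genes, fell into separate levels that did not follow tumour type (named after its values were seen). In set 1 it had 272 to 439 CPM in the 4 metastases and 388 CPM in the primary tumour, and in set 5 447 CPM in metastasis 5-x and 314 CPM in primary tumour 5. Metastases 2-1 and 2-2 had 481 and 512 CPM, while metastases 2-3 and 2-4 had 50.1 and 57.8 CPM and primary tumour 2 had 40.8 CPM. The libraries of sets 3, 4 and 6 had 23.4 to 95.4 CPM. The log2 fold change of Hspa8 was 0.37 (edgeR adjusted p = 0.701).

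Ddit3, an integrated stress response gene that encodes CHOP, had 234 CPM in primary tumour 6, against 2.02 to 30.9 CPM in the 14 metastases and 18.03 to 33.4 CPM in the other 5 primary tumours. It was named after its values were seen.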
